A study of Mus musculus with 12 samples.

Results

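Transcripts of 39 lysosome and vacuolar ATPase genes were followed in interscapular brown adipose tissue, the fat depot between the shoulder blades that burns lipid for heat. The genes were taken by name from the count tables of 12 libraries and kept where at least 10 reads were counted in at least 3 libraries. Of the 39 genes, 38 met this rule, out of 15282 that met it among the 53379 genes in the tables, and all 38 were among the 15208 genes tested. They comprised 10 proteases (9 cathepsins and legumain), 6 other hydrolases, 3 soluble carriers and cofactors, 5 membrane proteins, 11 of 12 listed proton pump genes and 3 transcription factors of the MiT/TFE family. The fewest reads of a kept member were 48, for Ctsk in a WT room temperature pool. Atp6v0c, which encodes the c subunit of the proton ring, was listed at 0 in every library. The cause was not tested, and its level is not described.

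All mice were 12 weeks old, on a C57BL/6 background, fed standard chow and killed at zeitgeber time 9. The study compared mice with a brown fat deletion of Cdk7, labelled Cdk7 bKO and called KO here, with control littermates labelled wild type and called WT. Cdk7 is the kinase of the CDK-activating complex and a subunit of the general transcription factor TFIIH. The groups were KO in the cold for 6 h with food, WT in the cold for 6 h with food, KO at room temperature and WT at room temperature, with 3 pools each. Every pool held RNA of 2 mice, 250 ng from each, so a value is the mean of a pair of mice and the spread is that between pools. The Cre driver, the sex of the mice and the temperature of the cold are not given in the sources used here. In whole tissue, fewer cells of a type and less RNA per cell cannot be told apart.

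Lysosomes break down protein, lipid and glycan with enzymes that work at acid pH. The acidity comes from the vacuolar ATPase, whose V1 sector splits ATP in the cytosol and drives protons through the V0 sector in the membrane. Tfeb, Tfe3 and Mitf are related transcription factors that bind E-box letters upstream of many lysosomal genes, and folliculin and the Rag GTPases hold them in the cytosol when nutrients are plentiful. In brown fat, lysosomes take part in turnover of mitochondria and of stored lipid, and macrophages of the tissue are also rich in them.

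The E-box core CACGTG was looked for in the RefSeq promoter windows on build GRCm38.p6, which run from 250 bases before to 50 after a gene's start. A window was at hand for 33 members (43 windows, since some genes have several), and Ctsb, Ctsh, Npc1, Atp6v1b2, Atp6v1c1 and Atp6v1h had none in the table used. The letters CACGTG, which read the same on both strands, were in 30.2% of the members' windows and in 7.15% of all 32851 windows. The longer palindrome TCACGTGA, which contains them, was in 14.0% of the members' windows and in 0.974% of all windows. A still longer form with G before and C after those letters was in none of the members' windows and in 0.326% of all windows. The 250 bases upstream of the start are shown for Lamp1, which held 4 copies, for Gla, which held the longer palindrome in both of its copies, for Mcoln1, Ctsd and Atp6v0b, which held 2 copies each, and for Ctsz, whose response to cold was the one that differed most between genotypes with TMM factors (-1.19, against 1.03 for Mitf; -0.99 and 1.25 with library totals alone) and whose window held none. The RefSeq start of Gla lies inside the annotated span of the gene in GENCODE M21. Capitals mark CACGTG or, where the longer palindrome was present, TCACGTGA.

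Lamp1 (chr8:13158911-13159160, plus strand): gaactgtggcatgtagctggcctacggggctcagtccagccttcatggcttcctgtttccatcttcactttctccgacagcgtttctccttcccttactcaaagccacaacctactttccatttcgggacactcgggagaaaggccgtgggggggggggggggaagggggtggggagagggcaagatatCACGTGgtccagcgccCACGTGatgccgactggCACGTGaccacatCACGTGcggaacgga
Gla (chrX:134601006-134601255, minus strand): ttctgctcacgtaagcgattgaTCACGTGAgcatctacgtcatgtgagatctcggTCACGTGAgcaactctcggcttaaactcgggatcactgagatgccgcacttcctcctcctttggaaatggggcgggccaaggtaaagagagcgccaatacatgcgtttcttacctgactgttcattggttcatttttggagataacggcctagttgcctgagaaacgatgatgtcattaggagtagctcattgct
Mcoln1 (chr8:3500269-3500518, plus strand): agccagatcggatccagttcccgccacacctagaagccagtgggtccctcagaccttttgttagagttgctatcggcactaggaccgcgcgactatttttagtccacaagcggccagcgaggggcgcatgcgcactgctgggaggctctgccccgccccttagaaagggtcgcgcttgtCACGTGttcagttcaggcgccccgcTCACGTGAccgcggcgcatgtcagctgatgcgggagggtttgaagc
Ctsd (chr7:142387828-142388077, minus strand): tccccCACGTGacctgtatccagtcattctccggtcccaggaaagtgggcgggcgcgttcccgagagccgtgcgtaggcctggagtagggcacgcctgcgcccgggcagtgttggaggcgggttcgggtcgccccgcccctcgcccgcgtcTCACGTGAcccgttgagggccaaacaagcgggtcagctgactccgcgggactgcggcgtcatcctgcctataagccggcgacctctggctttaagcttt
Atp6v0b (chr4:117887330-117887579, minus strand): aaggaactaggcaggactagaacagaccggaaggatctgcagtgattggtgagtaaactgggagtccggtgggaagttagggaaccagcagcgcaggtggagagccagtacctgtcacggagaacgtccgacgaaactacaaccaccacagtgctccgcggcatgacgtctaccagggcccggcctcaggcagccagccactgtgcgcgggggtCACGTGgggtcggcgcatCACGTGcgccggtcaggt
Ctsz (chr2:174439040-174439289, minus strand): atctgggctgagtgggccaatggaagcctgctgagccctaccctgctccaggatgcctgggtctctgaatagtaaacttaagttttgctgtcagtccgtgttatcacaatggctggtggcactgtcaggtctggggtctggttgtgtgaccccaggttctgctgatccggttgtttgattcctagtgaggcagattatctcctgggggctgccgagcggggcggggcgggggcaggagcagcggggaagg

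In Lamp1 the 4 copies began 61, 45, 28 and 15 bases before the start, and in Atp6v0b both began 36 and 18 bases before it. Ctsa, with copies on both sides of its start, Ctsf, Ctsl, Lgmn, Glb1, Gaa, Atp6v0d1 and Atp6v1a were the other members whose windows held the core. A match is a description of the letters and no evidence of binding.

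Gene counts summed to between 27609717 and 36792555 reads per library, and mitochondrially encoded transcripts took 31.1 to 42.5% of them. Levels are given as CPM, the share of a library's reads scaled to a fixed total after correction with TMM factors. Those factors were 1.072 to 1.177 in KO cold pools and 0.7985 to 0.8698 in WT cold pools, and 1.098 to 1.132 in KO and 0.8467 to 1.024 in WT pools at room temperature. Cdk7 was at 5.39, 4.85 and 5.39 CPM in KO cold pools and 18, 16.1 and 15.7 in WT cold pools. At room temperature Cdk7 was at 4.35, 5.15 and 5.77 CPM in KO pools and 16.4, 15.1 and 16.1 in WT pools. Cdk7 was lower in every KO pool than in every WT pool, with a log2 fold change of -1.67 ± 0.12 in the cold and -1.64 ± 0.12 at room temperature (standard error, adjusted p 2e-08 and 3.8e-08). The tissue label fitted its markers, since the 10 brown adipocyte markers, Ucp1 among them, summed to 14122 to 15136 CPM in KO cold pools, 27084 to 29937 in WT cold pools, 12827 to 15809 in KO room temperature pools and 19059 to 21518 in WT room temperature pools. Skeletal muscle transcripts varied within and between groups, the 15 markers summing to 44.2 to 324 CPM in KO cold pools, 68.5 to 177 in WT cold pools, 39.7 to 1510.1 in KO room temperature pools and 169 to 1145 in WT room temperature pools. All 15 had a negative log2 fold change with cold in KO (median -1.44) and in WT (median -3.33), 14 of 15 a positive one between KO and WT in the cold (median 1.85) and all 15 a positive difference of the cold responses (median 1.77). Of the 15 only Myl1 passed in edgeR's test, lower with cold in KO (-0.99) and in WT (-1.28) and lower in KO than in WT in the cold (-1.24) and at room temperature (-1.52). Replicate 6 of KO and replicate 2 of WT at room temperature, the muscle-rich libraries, held the most.

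Per kilobase of exon, the most abundant member over all 12 libraries was Psap at 353 CPM per kb, followed by Lamp1 at 224, Ctsz at 221 and Ctsb at 209. Mitf was the least abundant at 0.86 CPM per kb, and Ctsk (2.42), Tfeb (2.7) and Ctsh (2.73) came just above it. Ctsz had rank 4 in KO cold pools (151 CPM per kb) and rank 1 in WT cold pools (413 CPM per kb). At room temperature it had rank 4 in KO pools (146 CPM per kb) and in WT pools (174 CPM per kb). Gla ranked 28 of 38 in KO cold pools and 33 in WT cold pools, against 37 in both groups at room temperature. The heat map of the 38 genes shows a block of membrane protein and proton pump genes that were high in WT cold pools.

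**Figure D1:**
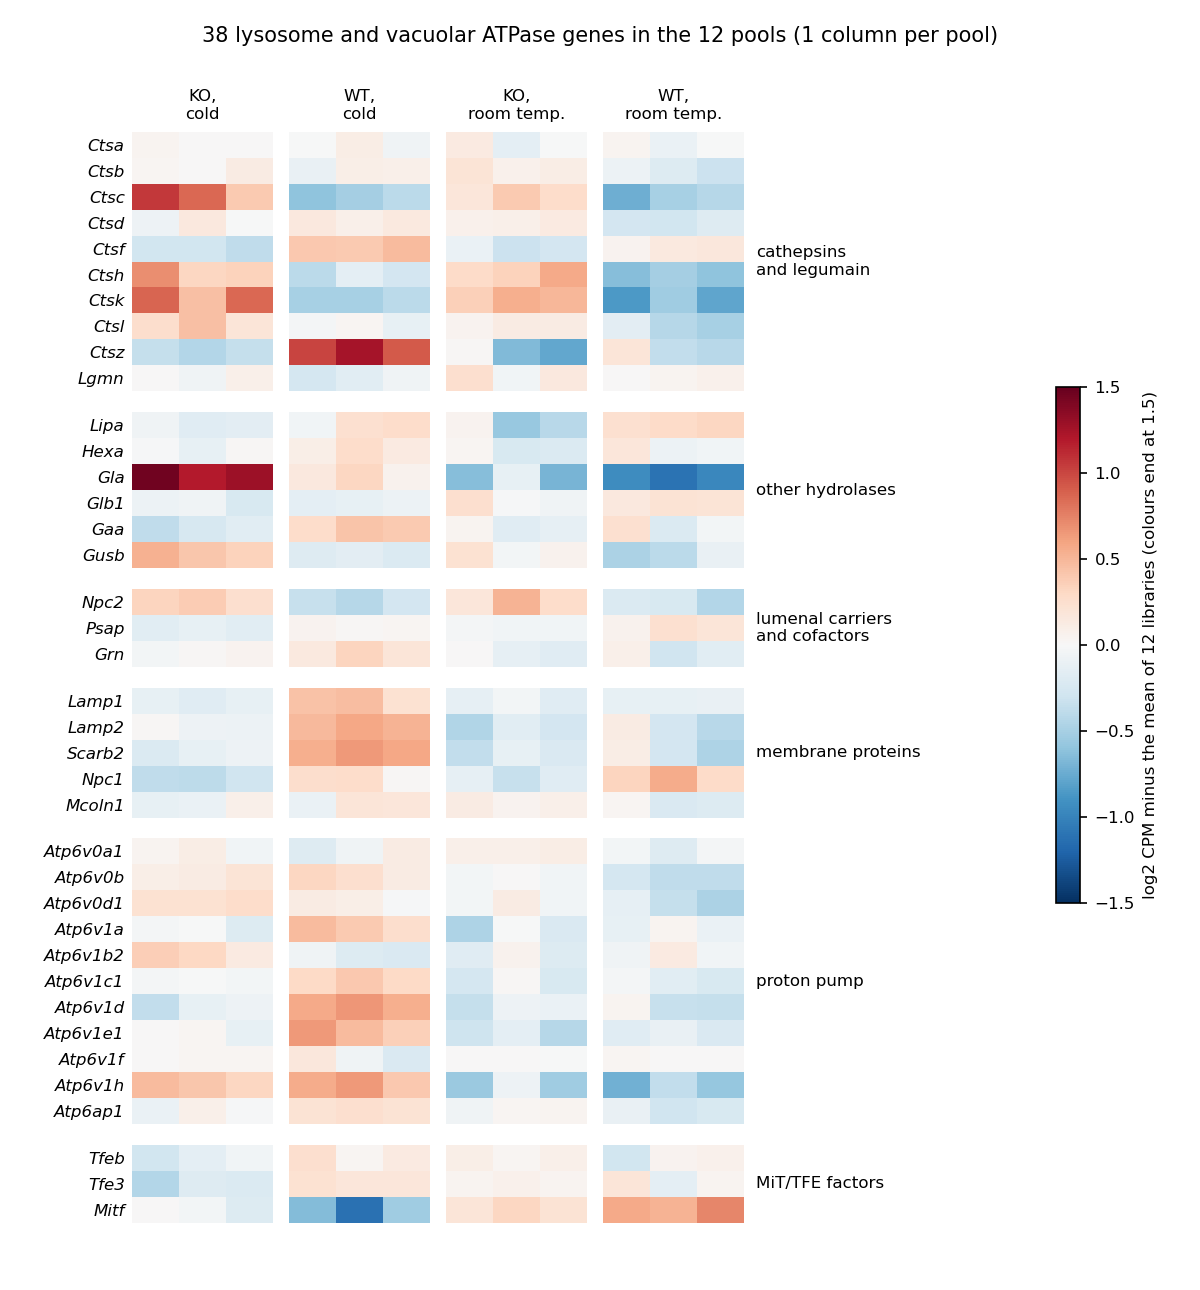
Log2 CPM of each of the 38 tested members in each of the 12 pools, minus the gene's mean over the 12 (colour, ending at 1.5), with genes in rows by class and pools in columns by group. Ctsz, Lamp1, Lamp2, Scarb2, Atp6v1d and Atp6v1e1 were highest in the 3 WT cold pools, while Ctsc, Ctsh, Ctsk and Npc2 were higher in KO than in WT pools at both temperatures.

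In the cold, 4 of 5 membrane proteins and 5 of 11 proton pump genes were lower in KO than in WT, and 4 of 10 proteases were higher. Scaled by library totals alone, 5 pump genes were higher and 1 lower, against 7881 and 1073 of all 15208 genes tested. Of the 4 membrane protein calls that of Scarb2 remained on that scale, while Mcoln1 was higher (0.30, adjusted p 0.011). Relative to WT, 9 of 38 members were higher in KO and 14 lower at an adjusted p under 0.05, against 25.9% of all genes tested higher and 27.8% lower (53.7% in either direction). The members' median log2 fold change was -0.14, against 0.01 over all genes. At room temperature 12 members were higher in KO than in WT and 4 lower, against 19.3% and 21.0% of all genes (40.4% in either direction), with a median of 0.02 against 0.00. Counted by pools that did not overlap, 11 members lay higher and 18 lower in KO than in WT in the cold, against 30.6% and 32.1% of all genes (62.7% in either direction). At room temperature 14 lay higher and 5 lower, against 23.9% and 24.9% of all genes (48.8% in either direction). The share of members called in either direction, 60.5% in the cold and 42.1% at room temperature, was near that of all genes.

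With cold, the members called moved mostly upward in WT tissue, whereas all genes were called in both directions about equally often. In KO tissue 5 members were higher in the cold than at room temperature and 1 lower, against 7.29% and 7.56% of all genes (14.8% in either direction). In WT tissue 19 (50.0%) were higher and 2 (5.26%) lower, against 23.0% and 23.2% of all genes (46.3% in either direction). The median log2 fold change from cold was 0.03 for members in KO and 0.28 in WT, against -0.02 and -0.03 for all genes. Pools did not overlap for 11 members that lay higher and 5 that lay lower in the cold in KO (15.3% and 17.4% of all genes), and for 20 and 6 in WT (27.6% and 27.9% of all genes). The count for cold in KO rested on single libraries: 2 members were higher without replicate 1 or 2 of KO in the cold or replicate 6 of KO at room temperature, and 0 were lower without replicate 1 of KO in the cold or replicate 6 of KO at room temperature. In WT 1 member was lower without replicate 1 or 2 of WT in the cold or replicate 2 or 3 of WT at room temperature.

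The difference between both cold responses, KO minus WT, was tested directly. It was positive for 3 members (Gla, Atp6v1b2 and Mitf) and negative for 12 (31.6%), against 10.6% and 12.9% of all genes (23.5% in either direction), with a median of -0.24 against 0.01. The differences of Ctsz, Scarb2, Atp6v1d and Mitf passed under every alternative tried. The comparisons share pools: the 3 WT cold pools enter the genotype comparison in the cold, the WT response and the difference, so these results are not independent of one another.

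TMM factors differed between groups, so the scaling sets the zero of each comparison. Scaled by library totals alone, all genes had a median of 0.45 between KO and WT in the cold, 0.22 between KO and WT at room temperature, 0.00 for the KO response, -0.23 for the WT response and 0.24 for the difference of the responses. Members called higher and lower were then 21 and 4 between KO and WT in the cold and 17 and 2 at room temperature. Of all 15208 genes tested, 7881 and 1073 were so called in the cold and 4739 and 1267 at room temperature. The same scaling gave 2 and 0 members for the KO response to cold, against 801 and 675 of all genes. It gave 11 and 6 for the WT response, against 1826 and 4813, and 4 and 3 for the difference, against 2388 and 711. Among all genes called, 88.0% were higher in KO in the cold on that scale, against 48.3% with TMM factors, and 78.9%, against 47.9%, at room temperature. For the KO response the share was 54.3% against 49.1%, for the WT response 27.5% against 49.8% and for the difference 77.1% against 45.1%. Measured from the median of all genes, the members' median was -0.15 between KO and WT in the cold, 0.31 for the WT response and -0.26 for the difference on library totals, and -0.15, 0.31 and -0.25 with TMM factors. Directions given here are therefore relative to the bulk of genes.

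**Figure D2:**
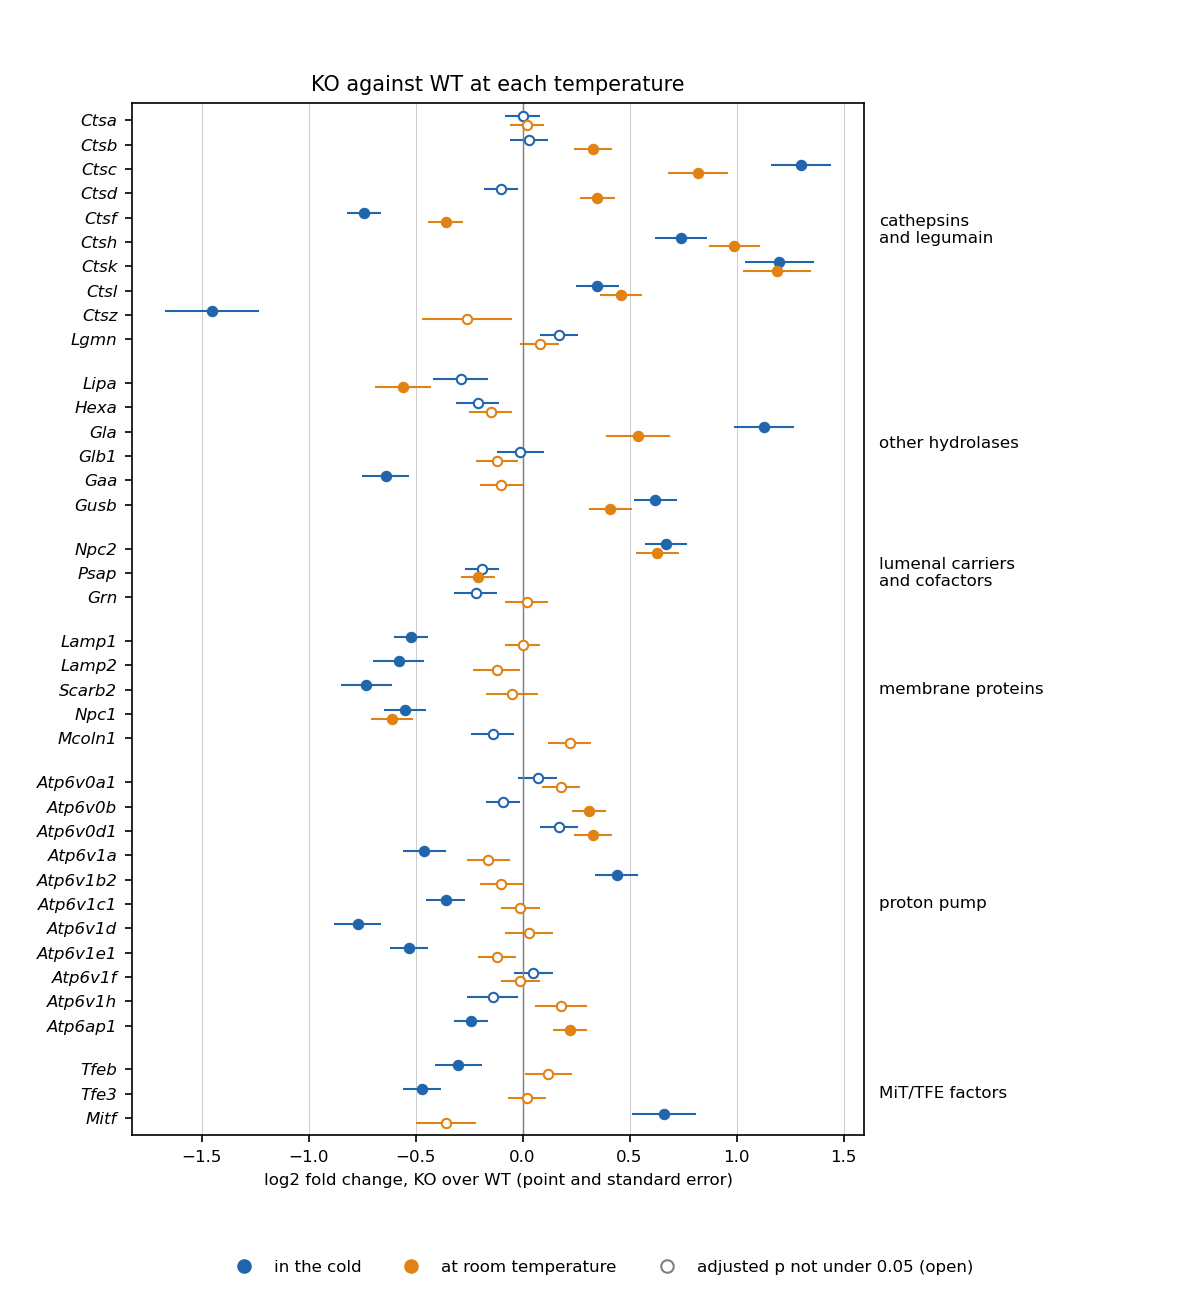
Log2 fold change of KO over WT (point) with its standard error (bar) for the 38 members, in the cold (blue) and at room temperature (orange), filled where the adjusted p was under 0.05. In the cold 4 of 5 membrane proteins and 4 of 7 V1 subunits passed as lower, and at room temperature Npc1 was the one of these that passed as lower (-0.55 in the cold and -0.61 at room temperature).

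The proteases split into a group that was higher in KO pools at both temperatures and single genes that behaved otherwise. Of the 10, 4 were higher and 2 lower in KO than in WT in the cold (median 0.10), and 6 higher and 1 lower at room temperature (median 0.34). Scaled by library totals alone, 8 were higher and 2 lower in the cold, and 7 higher and 0 lower at room temperature. Of all 15208 genes tested, 7881 were higher and 1073 lower on that scale in the cold, and 4739 and 1267 at room temperature. With TMM factors 25.9% of all genes were higher and 27.8% lower in the cold, and 19.3% and 21.0% at room temperature.

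Ctsk, a collagen-degrading enzyme best known from osteoclasts (chr3:95499256-95509362, GRCm38, plus strand), was at 6.12, 4.56 and 6.07 CPM in KO cold pools and 2.36, 2.36 and 2.53 in WT cold pools. At room temperature Ctsk was at 4.27, 4.89 and 4.73 CPM in KO pools and 1.84, 2.3 and 1.93 in WT pools. KO and WT pools did not overlap at either temperature, and the log2 fold change of KO over WT was 1.20 ± 0.16 in the cold and 1.19 ± 0.16 at room temperature (adjusted p 1.5e-05 and 3.4e-05). Ctsc, the dipeptidyl peptidase that activates serine proteases of immune cells, was at 32.3, 28.1 and 20.3 CPM in KO cold pools and 10.2, 10.9 and 11.7 in WT cold pools. At room temperature Ctsc was at 17.6, 20.3 and 18.7 CPM in KO pools and 9.32, 11 and 11.5 in WT pools. All 6 KO pools were above all 6 WT pools, by 1.30 ± 0.14 in the cold (adjusted p 1.9e-06) and 0.82 ± 0.14 at room temperature (adjusted p 0.00024). Ctsh, an aminopeptidase, was at 18.9, 14.6 and 14.9 CPM in KO cold pools and 8.85, 10.6 and 9.68 in WT cold pools. At room temperature Ctsh was at 14.3, 14.8 and 17.4 CPM in KO pools and 7.48, 8.19 and 7.71 in WT pools. Here too no KO pool overlapped a WT pool, with log2 fold changes of 0.74 ± 0.12 in the cold and 0.99 ± 0.12 at room temperature (adjusted p 8.2e-05 and 9.8e-06).

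Ctsl, a broad cysteine endopeptidase, rose less, by 0.35 ± 0.10 in KO over WT in the cold and 0.46 ± 0.10 at room temperature (adjusted p 0.0061 and 0.0013). Ctsb, the most abundant protease per kilobase in KO pools, was higher in KO at room temperature (0.33 ± 0.09, adjusted p 0.0092) and had a fold change of 0.03 ± 0.09 in the cold (adjusted p 0.82). Ctsf, another cysteine protease, went the other way, at 34.8, 34.9 and 32.5 CPM in KO cold pools and 56.1, 55.9 and 59 in WT cold pools. At room temperature Ctsf was at 39.6, 33.9 and 35.1 CPM in KO pools and 44.1, 47 and 47.9 in WT pools. It was lower in every KO pool than in every WT pool with log2 fold changes of -0.74 ± 0.08 in the cold and -0.36 ± 0.08 at room temperature (adjusted p 1.4e-06 and 0.002). The room temperature call of Ctsb ended without replicate 3 of WT at room temperature (0.27, adjusted p 0.061) and without the 2 muscle-rich libraries (0.34, adjusted p 0.059), and that of Ctsf with library totals alone (-0.14, adjusted p 0.32).

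Ctsz, a carboxypeptidase also called cathepsin X (chr2:174427493-174439039, minus strand), was the member with the largest fall in KO relative to WT in the cold. Its levels were 221, 209.5 and 222 CPM in KO cold pools and 573, 674 and 537 in WT cold pools. At room temperature Ctsz was at 286, 179 and 165 CPM in KO pools and 323, 219.8 and 212 in WT pools. The 3 WT cold pools stood above all 9 other pools, which overlapped one another. The response of Ctsz to cold was 0.05 ± 0.21 in KO (adjusted p 0.91) and 1.24 ± 0.22 in WT (adjusted p 0.00079), a 2.37-fold rise in WT. The difference of the cold responses was -1.19 ± 0.30 (adjusted p 0.017), and KO was below WT in the cold with a log2 fold change of -1.45 ± 0.22 (adjusted p 0.00025). Ctsz was higher in replicate 4 of KO and in replicate 1 of WT at room temperature than in the other pools of their groups, and the fold change at room temperature, -0.26 ± 0.21, did not pass (adjusted p 0.36). Nelfcd overlaps Ctsz on the opposite strand, with 3.04 to 14.3% as many reads, and strand is recorded only in the names of the count tables.

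Ctsd, the main aspartic protease of the lysosome, was at 187, 220.2 and 196 CPM in KO cold pools and 220.1, 209 and 219 in WT cold pools. At room temperature Ctsd was at 208, 210.3 and 217 CPM in KO pools and 163, 162 and 172 in WT pools. The response of Ctsd to cold was -0.07 ± 0.08 in KO (adjusted p 0.59) and 0.38 ± 0.08 in WT (adjusted p 0.00093), a difference of -0.46 ± 0.11 (adjusted p 0.0084). KO room temperature pools were already above WT room temperature pools without overlap, by 0.35 ± 0.08 (adjusted p 0.0024), and the KO and WT cold pools overlapped. The response of Ctsf to cold was -0.09 ± 0.08 in KO (adjusted p 0.51) and 0.30 ± 0.08 in WT (adjusted p 0.0049), a difference of -0.39 ± 0.11 (adjusted p 0.019). Ctsc was the only protease called higher in the cold in KO, by 0.51 ± 0.14 (adjusted p 0.017), and Ctsh and Ctsl were called higher in the cold in WT, by 0.31 ± 0.12 and 0.32 ± 0.10 (adjusted p 0.046 and 0.012). Ctsa and Lgmn, the asparaginyl endopeptidase, passed in no comparison in edgeR's test with TMM factors, with log2 fold changes between -0.20 and 0.17. On library totals alone both were higher in KO in the cold (0.44 and 0.61). There 8 proteases were called higher and 2 lower, against 7881 and 1073 of all 15208 genes. With limma voom 1 protease was lower for cold in WT, against 0 in edgeR's test. Ctsa shares exons with Pltp on the opposite strand, which had 38.7 to 125% as many reads. For cold in KO the call of Ctsc ended with library totals alone (0.55, adjusted p 0.051), without any one of replicate 1 or 2 of KO in the cold and replicate 4 or 6 of KO at room temperature (0.36 to 0.51, adjusted p 0.06 to 0.11) and without the 2 muscle-rich libraries (0.51, adjusted p 0.075). For cold in WT, with library totals alone the calls of Ctsd (0.19, adjusted p 0.17) and Ctsf (0.10, adjusted p 0.48) ended. The call of Ctsl ended with library totals alone (0.13, adjusted p 0.31), without any one of replicate 2 of WT in the cold and replicate 2 or 3 of WT at room temperature (0.25 to 0.28, adjusted p 0.054 to 0.08) and without the 2 muscle-rich libraries (0.28, adjusted p 0.071). That of Ctsh ended with library totals alone (0.11, adjusted p 0.56), without any one of replicate 2 or 3 of WT in the cold and replicate 1, 2 or 3 of WT at room temperature (0.25 to 0.35, adjusted p 0.06 to 0.17) and with DESeq2's Wald test, with no filter beyond 1 count, with a strict filter or without the 2 muscle-rich libraries (0.29 to 0.35, adjusted p 0.053 to 0.1). The difference of Ctsd did not pass with library totals alone (-0.23, adjusted p 0.29) and without the 2 muscle-rich libraries (-0.42, adjusted p 0.062). That of Ctsf did not pass with library totals alone (-0.16, adjusted p 0.51), without replicate 3 of WT in the cold (-0.35, adjusted p 0.051) and with no filter beyond 1 count or without the 2 muscle-rich libraries (-0.42 to -0.34, adjusted p 0.053 to 0.11).

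Among the 6 other hydrolases, 2 were higher and 1 lower in KO than in WT at each temperature, near the share of all genes (25.9% higher and 27.8% lower in the cold, 19.3% and 21.0% at room temperature). Gla, the alpha-galactosidase that trims globotriaosylceramide (chrX:134588149-134601125, minus strand), was at 23.7, 19.7 and 20.9 CPM in KO cold pools and 9.59, 10.8 and 8.98 in WT cold pools. At room temperature Gla was at 5.55, 7.88 and 5.31 CPM in KO pools and 4.49, 4.01 and 4.38 in WT pools. Its 4 groups were in separate ranges, KO cold highest and WT room temperature lowest. Cold raised it 3.43-fold in KO (1.78 ± 0.14, adjusted p 1e-06) and 2.28-fold in WT (1.19 ± 0.15, adjusted p 5.4e-06). The difference of 0.59 ± 0.20 just passed (adjusted p 0.041), and KO was above WT by 1.13 ± 0.14 in the cold and 0.54 ± 0.15 at room temperature (adjusted p 4.7e-06 and 0.0073). The room temperature call ended without replicate 5 of KO at room temperature (0.34, adjusted p 0.053). The difference did not pass without any one of replicate 1 or 3 of KO in the cold, replicate 4 or 6 of KO at room temperature, replicate 1 or 3 of WT in the cold and replicate 1 or 3 of WT at room temperature (0.49 to 0.61, adjusted p 0.055 to 0.11) and without the 2 muscle-rich libraries (0.54, adjusted p 0.12).

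Gaa, the enzyme that frees glucose from lysosomal glycogen, was at 42.1, 45.9 and 48.6 CPM in KO cold pools and 66.5, 74 and 71.8 in WT cold pools. At room temperature Gaa was at 56.5, 48.2 and 49.9 CPM in KO pools and 64.8, 47.2 and 53.3 in WT pools. WT cold pools were above every other pool. The response of Gaa to cold was -0.18 ± 0.10 in KO (adjusted p 0.28) and 0.36 ± 0.10 in WT (adjusted p 0.0092). KO lay below WT in the cold with a log2 fold change of -0.64 ± 0.11 (adjusted p 9.9e-05) and the difference was -0.54 ± 0.15 (adjusted p 0.015). Gusb, beta-glucuronidase, was at 27.8, 25.6 and 24.4 CPM in KO cold pools and 16.9, 17.3 and 16.6 in WT cold pools. At room temperature Gusb was at 22.6, 18.7 and 20.2 CPM in KO pools and 13.9, 14.6 and 17.8 in WT pools. KO pools lay above WT pools at both temperatures without overlap, by 0.62 ± 0.10 in the cold and 0.41 ± 0.10 at room temperature (adjusted p 0.00012 and 0.0051), and cold raised it in KO by 0.34 ± 0.10 (adjusted p 0.033). The call of Gusb at room temperature ended without the 2 muscle-rich libraries (0.38, adjusted p 0.055), and for cold in KO with library totals alone (0.37, adjusted p 0.086), without any one of replicate 1 or 2 of KO in the cold and replicate 5 or 6 of KO at room temperature (0.28 to 0.35, adjusted p 0.083 to 0.14) and without the 2 muscle-rich libraries (0.33, adjusted p 0.11). The call of Gaa between KO and WT in the cold ended with library totals alone (-0.20, adjusted p 0.075), and for cold in WT with library totals alone (0.18, adjusted p 0.13), without replicate 2 of WT at room temperature (0.26, adjusted p 0.061) and without the 2 muscle-rich libraries (0.26, adjusted p 0.076). The difference of Gaa did not pass with library totals alone (-0.33, adjusted p 0.081), without replicate 2 of WT in the cold (-0.49, adjusted p 0.051) and without the 2 muscle-rich libraries (-0.46, adjusted p 0.062).

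Lipa, the acid lipase that splits cholesteryl esters and triglycerides, was at 106, 97.8 and 99.5 CPM in KO cold pools and 107, 131 and 134 in WT cold pools. At room temperature Lipa was at 115, 74.6 and 83 CPM in KO pools and 130.1, 135 and 138 in WT pools. All KO room temperature pools were below all WT room temperature pools, with a fold change of -0.56 ± 0.13 (adjusted p 0.0028). In the cold it was -0.29 ± 0.13 (adjusted p 0.068), just short of the threshold, with WT cold replicate 1 close to the KO pools. Glb1, beta-galactosidase, was lower in the cold in WT (-0.31 ± 0.11, adjusted p 0.024), and Hexa, the alpha subunit of beta-hexosaminidase, passed in no comparison in edgeR's test with TMM factors. The call of Glb1 ended without any one of replicate 1 or 2 of WT in the cold and replicate 2 or 3 of WT at room temperature (-0.31 to -0.29, adjusted p 0.059 to 0.069) and without the 2 muscle-rich libraries (-0.30, adjusted p 0.077).

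Of the 3 soluble carriers and cofactors, 1 was higher and 0 lower in KO than in WT in the cold, against 25.9% and 27.8% of all genes. At room temperature 1 was higher and 1 lower, against 19.3% and 21.0% of all genes. Npc2, which lifts cholesterol out of the lumen and hands it to Npc1 in the membrane, was at 372, 385 and 351 CPM in KO cold pools and 233, 220.1 and 244 in WT cold pools. At room temperature Npc2 was at 334, 425 and 357 CPM in KO pools and 255, 250.1 and 218 in WT pools. All 6 KO pools were above all 6 WT pools, by 0.67 ± 0.10 in the cold and 0.63 ± 0.10 at room temperature (adjusted p 3.4e-05 and 0.00011), and its cold responses were -0.01 ± 0.10 in KO and -0.05 ± 0.10 in WT (adjusted p 0.96 and 0.7). Psap, the precursor of the saposins that present lipids to hydrolases, was at 859, 885 and 859.6 CPM in KO cold pools and 1000.2, 978 and 986 in WT cold pools. At room temperature Psap was at 942, 934 and 928 CPM in KO pools and 1012, 1139.7 and 1099 in WT pools. KO pools were below WT pools at both temperatures without overlap, at -0.19 ± 0.08 in the cold, which did not pass (adjusted p 0.056), and -0.21 ± 0.08 at room temperature (adjusted p 0.041). The room temperature call ended with library totals alone (0.00, adjusted p 0.99), without any one of replicate 5 or 6 of KO at room temperature and replicate 2 or 3 of WT at room temperature (-0.21 to -0.18, adjusted p 0.069 to 0.16) and with no filter beyond 1 count, with only the 6 libraries compared, with a strict filter or without the 2 muscle-rich libraries (-0.24 to -0.17, adjusted p 0.064 to 0.26).

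Grn, progranulin, a secreted and lysosomal protein that is cut into granulins, was at 73.7, 77.1 and 78.8 CPM in KO cold pools and 84.4, 95.5 and 86.8 in WT cold pools. At room temperature Grn was at 76.4, 69.5 and 66.8 CPM in KO pools and 80.6, 62 and 67.5 in WT pools. KO and WT pools overlapped at room temperature, and in the cold all KO pools were below all WT pools with a log2 fold change of -0.22 ± 0.10 (adjusted p 0.065, not passing). The response of Grn to cold was 0.11 ± 0.09 in KO (adjusted p 0.48) and 0.34 ± 0.10 in WT (adjusted p 0.0068). The WT call ended with library totals alone (0.16, adjusted p 0.16) and without the 2 muscle-rich libraries (0.26, adjusted p 0.059).

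Of the 5 membrane proteins, 4 were lower in KO than in WT in the cold (median -0.55) and 1 at room temperature (median -0.05), against 27.8% and 21.0% of all genes. With cold, none passed in KO in edgeR's test (median -0.03), where 1 was higher at an unadjusted p under 0.05 and 0 passed with DESeq2 or limma voom. In WT 3 were higher in the cold (median 0.50), against 23.0% of all genes. Among the 4 only the fall of Scarb2 in the cold still passed with library totals alone.

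Scarb2, or LIMP-2, the receptor that carries glucocerebrosidase to the lysosome (chr5:92441314-92506833, minus strand), was at 213, 227 and 235 CPM in KO cold pools and 362, 390.1 and 369 in WT cold pools. At room temperature Scarb2 was at 191, 227 and 211 CPM in KO pools and 267, 204 and 179.8 in WT pools. WT cold pools stood above all others, and the remaining 3 groups overlapped. The response of Scarb2 to cold was 0.10 ± 0.12 in KO (adjusted p 0.62) and 0.79 ± 0.12 in WT (adjusted p 4e-05), a difference of -0.69 ± 0.17 (adjusted p 0.0069). KO was below WT in the cold with a log2 fold change of -0.73 ± 0.12 (adjusted p 7.2e-05).

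Lamp1, one of the glycoproteins that line the lysosomal membrane (chr8:13159161-13175338, plus strand), was at 541, 523 and 544 CPM in KO cold pools and 805, 814 and 693 in WT cold pools. At room temperature Lamp1 was at 539, 574 and 523 CPM in KO pools and 545, 541 and 548 in WT pools. Again the 3 WT cold pools were above the other 9, which lay between 523 and 574 CPM. The response of Lamp1 to cold was -0.03 ± 0.08 in KO (adjusted p 0.88) and 0.50 ± 0.08 in WT (adjusted p 0.00013), and the difference was -0.53 ± 0.12 (adjusted p 0.0049). KO was below WT in the cold with a log2 fold change of -0.52 ± 0.08 (adjusted p 7.9e-05), and at room temperature the fold change was 0.00 ± 0.08 (adjusted p 0.99). Lamp2, its partner, which also serves chaperone-mediated autophagy, was at 205, 192 and 190.1 CPM in KO cold pools and 283, 303 and 291 in WT cold pools. At room temperature Lamp2 was at 148, 179 and 167 CPM in KO pools and 220.4, 167 and 152 in WT pools. It was highest in WT cold pools. The response of Lamp2 to cold was 0.25 ± 0.11 in KO (adjusted p 0.16) and 0.70 ± 0.12 in WT (adjusted p 0.0001), and KO lay below WT in the cold with a log2 fold change of -0.58 ± 0.12 (adjusted p 0.00052). The difference of the Lamp2 responses, -0.46 ± 0.16, did not pass (adjusted p 0.051). On library totals alone the fall in the cold did not pass for Lamp1 (-0.09, adjusted p 0.51) or Lamp2 (-0.14, adjusted p 0.3), nor did the difference of Lamp1 (-0.30, adjusted p 0.17).

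Npc1, the membrane receptor that takes cholesterol from Npc2, was at 23.7, 23.5 and 25.2 CPM in KO cold pools and 37.2, 37.4 and 31.2 in WT cold pools. At room temperature Npc1 was at 28.1, 24.4 and 27.3 CPM in KO pools and 38.9, 45.4 and 37.7 in WT pools. It was lower in every KO pool than in every WT pool with log2 fold changes of -0.55 ± 0.10 in the cold and -0.61 ± 0.10 at room temperature (adjusted p 0.00017 and 0.00011). The carrier Npc2 and its receptor Npc1 were thus called in opposite directions at both temperatures. Rmc1 overlaps Npc1 on the opposite strand with 64.3 to 108% as many reads, so the Npc1 counts are less certain if strand was not kept. Mcoln1, a calcium channel of the lysosome, passed in no comparison in edgeR's test with TMM factors and was between 27.4 and 36.8 CPM in all libraries. With limma voom 1 membrane protein was higher in KO at room temperature and 4 were higher with cold in WT, against 0 and 3 in edgeR's test. With library totals alone Npc1 no longer passed in the cold (-0.11, adjusted p 0.45).

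Of the 11 proton pump genes tested, 2 were higher in the cold in KO (median 0.14) and 8 in WT (median 0.44), against 7.29% of all genes in KO and 23.0% in WT. The 3 that did not pass in WT were Atp6v1b2 (-0.17 ± 0.10), Atp6v1f (-0.04 ± 0.09) and Atp6v0a1 (0.05 ± 0.09). On library totals alone 6 pump genes were higher and 1 lower in the cold in WT, against 1826 and 4813 of all 15208 genes. In the cold 1 was higher and 5 lower in KO than in WT (median -0.14), against 25.9% and 27.8% of all genes. At room temperature 3 were higher and 0 lower in edgeR's test (median 0.03), against 19.3% and 21.0% of all genes. There 0 were lower also at an unadjusted p under 0.05, with DESeq2 and with limma voom. In the cold the lower genes were 4 of 7 V1 genes and Atp6ap1, and at room temperature the higher ones were Atp6v0b and Atp6v0d1 of the V0 sector and Atp6ap1. The sectors were not tested against each other. Scaled by library totals, 5 pump genes were higher and 1 lower in KO in the cold, against 7881 and 1073 of all 15208 genes. At room temperature 5 were higher and 0 lower on that scale, against 4739 and 1267 of all genes.

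Atp6v1d, the D subunit of the rotating central stalk (chr12:78840725-78861638, minus strand), was at 73.8, 87.6 and 90.5 CPM in KO cold pools and 141, 150.4 and 139 in WT cold pools. At room temperature Atp6v1d was at 74.2, 90 and 88.6 CPM in KO pools and 97.6, 75.2 and 74.4 in WT pools. The WT cold pools stood alone, and the other 3 groups overlapped. The response of Atp6v1d to cold was -0.01 ± 0.11 in KO (adjusted p 0.98) and 0.80 ± 0.11 in WT (adjusted p 2.2e-05). The difference, -0.81 ± 0.16 (adjusted p 0.0018), and the fall in KO against WT in the cold, -0.77 ± 0.11 (adjusted p 2.8e-05), passed under every alternative.

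Atp6v1e1, the E subunit of the outer stalk, was at 119, 120.5 and 109 CPM in KO cold pools and 186, 165 and 152 in WT cold pools. At room temperature Atp6v1e1 was at 95.2, 107 and 88.2 CPM in KO pools and 104, 110 and 101 in WT pools. Cold and room temperature pools did not overlap in either genotype. The response of Atp6v1e1 to cold was 0.26 ± 0.09 in KO (adjusted p 0.068) and 0.67 ± 0.09 in WT (adjusted p 2e-05), the KO value being short of the threshold. KO was below WT in the cold with a log2 fold change of -0.53 ± 0.09 (adjusted p 0.00018) and the difference was -0.41 ± 0.13 (adjusted p 0.032). Atp6v1c1, the C subunit that links V1 to V0, was at 54.8, 55.5 and 54.3 CPM in KO cold pools and 68.6, 74 and 68.3 in WT cold pools. At room temperature Atp6v1c1 was at 46.3, 56.4 and 47.3 CPM in KO pools and 54.4, 49.4 and 47.1 in WT pools. WT cold pools were highest. The response of Atp6v1c1 to cold was 0.13 ± 0.09 in KO (adjusted p 0.33) and 0.48 ± 0.09 in WT (adjusted p 0.00024), a difference of -0.35 ± 0.12 (adjusted p 0.048) and a fold change of KO over WT in the cold of -0.36 ± 0.09 (adjusted p 0.0024). The falls in the cold did not pass with library totals alone for Atp6v1e1 (-0.09, adjusted p 0.53) or Atp6v1c1, which turned to 0.08 (adjusted p 0.49). The difference of Atp6v1e1 did not pass with library totals alone (-0.19, adjusted p 0.48), without any one of replicate 1 or 3 of KO in the cold, replicate 5 of KO at room temperature, replicate 1 or 2 of WT in the cold and replicate 1 or 3 of WT at room temperature (-0.43 to -0.33, adjusted p 0.05 to 0.099) and with no filter beyond 1 count (-0.37, adjusted p 0.075). The difference of Atp6v1c1 did not pass with library totals alone (-0.13, adjusted p 0.55), without any one of replicate 1, 2 or 3 of KO in the cold, replicate 5 or 6 of KO at room temperature, replicate 1, 2 or 3 of WT in the cold and replicate 2 or 3 of WT at room temperature (-0.39 to -0.25, adjusted p 0.052 to 0.15) and with median-ratio size factors, with no filter beyond 1 count, with a strict filter or without the 2 muscle-rich libraries (-0.37 to -0.30, adjusted p 0.055 to 0.18).

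Atp6v1a, the A subunit that splits ATP, was at 105, 106 and 92.7 CPM in KO cold pools and 148, 139.9 and 128 in WT cold pools. At room temperature Atp6v1a was at 77.7, 106 and 91.4 CPM in KO pools and 98.4, 109.7 and 99.3 in WT pools. KO was below WT in the cold without overlap with a log2 fold change of -0.46 ± 0.10 (adjusted p 0.0016). The response of Atp6v1a to cold was 0.14 ± 0.10 in KO (adjusted p 0.4) and 0.44 ± 0.10 in WT (adjusted p 0.0025), and the difference of -0.30 ± 0.15 did not pass (adjusted p 0.16). Its partner in the catalytic ring, Atp6v1b2, the B2 subunit, behaved otherwise, at 138, 133 and 117 CPM in KO cold pools and 102, 93.1 and 91.5 in WT cold pools. At room temperature Atp6v1b2 was at 94.3, 112 and 92.6 CPM in KO pools and 102, 117 and 103 in WT pools. KO cold pools were above WT cold and KO room temperature pools, and the lowest of them was level with the highest WT room temperature pool. It had a cold response of 0.37 ± 0.10 in KO and -0.17 ± 0.10 in WT (adjusted p 0.014 and 0.17). KO exceeded WT in the cold by 0.44 ± 0.10 (adjusted p 0.0011), and the difference was 0.54 ± 0.14 (adjusted p 0.0087). The call of Atp6v1b2 for cold in KO ended with library totals alone (0.40, adjusted p 0.06), without any one of replicate 1 or 2 of KO in the cold and replicate 4 or 6 of KO at room temperature (0.32 to 0.35, adjusted p 0.053 to 0.079) and without the 2 muscle-rich libraries (0.32, adjusted p 0.081), and its difference did not pass without the 2 muscle-rich libraries (0.42, adjusted p 0.079). Atp6v1a no longer passed with library totals alone, between KO and WT in the cold (-0.02, adjusted p 0.93) or for the WT response (0.24, adjusted p 0.16).

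Atp6v1h, the regulatory H subunit (chr1:5070018-5162529, plus strand), shown here because of its values, rose with cold in both genotypes, to 104, 99.9 and 93.1 CPM in KO cold pools, against 50.9, 70.7 and 51.7 in KO room temperature pools, and to 110.3, 117 and 99.2 in WT cold pools, against 45.2, 57.8 and 50.1 in WT room temperature pools. No cold pool overlapped a room temperature pool. The responses were 0.78 ± 0.12 in KO and 1.09 ± 0.12 in WT (adjusted p 0.00051 and 2.8e-06), and their difference of -0.31 ± 0.17 did not pass (adjusted p 0.2). Atp6v1f stayed between 33.9 and 44.7 CPM in all 12 libraries, with fold changes of -0.04 to 0.06.

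In the V0 sector Atp6v0b, a proteolipid of the proton ring, was at 85.3, 86.6 and 91.6 CPM in KO cold pools and 100.1, 94.7 and 86.6 in WT cold pools. At room temperature Atp6v0b was at 77.6, 80.3 and 76.9 CPM in KO pools and 66.4, 61.2 and 61.4 in WT pools. KO exceeded WT at room temperature without overlap, by 0.31 ± 0.08 (adjusted p 0.0043), and the cold pools of both genotypes overlapped. The response of Atp6v0b to cold was 0.17 ± 0.08 in KO (adjusted p 0.16) and 0.57 ± 0.08 in WT (adjusted p 1.6e-05), a difference of -0.41 ± 0.11 (adjusted p 0.013). Atp6v0d1, the d subunit at the base of the stalk, was higher in KO at room temperature by 0.33 ± 0.09 and in the cold in WT by 0.39 ± 0.09 (adjusted p 0.0082 and 0.002). Atp6v0a1 passed in no comparison in edgeR's test with TMM factors, with fold changes of -0.11 to 0.18. The difference of Atp6v0b did not pass with library totals alone (-0.19, adjusted p 0.33), with no filter beyond 1 count (-0.36, adjusted p 0.078) and without the 2 muscle-rich libraries (-0.40, adjusted p 0.066). The call of Atp6v0d1 at room temperature ended without replicate 3 of WT at room temperature (0.24, adjusted p 0.063), and for cold in WT with library totals alone (0.20, adjusted p 0.1).

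Atp6ap1, the accessory protein Ac45, changed sides between temperatures, at 92.3, 105 and 97.9 CPM in KO cold pools and 115, 118 and 115 in WT cold pools. At room temperature Atp6ap1 was at 95, 101 and 102 CPM in KO pools and 91.6, 80.4 and 84.2 in WT pools. KO was below WT in the cold with a log2 fold change of -0.24 ± 0.08 (adjusted p 0.017) and above it at room temperature by 0.22 ± 0.08 (adjusted p 0.035). The response of Atp6ap1 to cold was -0.02 ± 0.08 in KO (adjusted p 0.93) and 0.44 ± 0.08 in WT (adjusted p 0.00022), a difference of -0.46 ± 0.11 (adjusted p 0.0074). The call in the cold ended with library totals alone (0.20, adjusted p 0.074), without any one of replicate 1 of KO in the cold and replicate 2 of WT in the cold (-0.22 to -0.20, adjusted p 0.068 to 0.079) and with no filter beyond 1 count or with a strict filter (-0.22 to -0.18, adjusted p 0.06 to 0.096). The call at room temperature ended without any one of replicate 5 or 6 of KO at room temperature and replicate 2 or 3 of WT at room temperature (0.18 to 0.21, adjusted p 0.075 to 0.15) and with no filter beyond 1 count, with only the 6 libraries compared or without the 2 muscle-rich libraries (0.16 to 0.23, adjusted p 0.079 to 0.3). The difference did not pass with library totals alone (-0.24, adjusted p 0.2) and without the 2 muscle-rich libraries (-0.40, adjusted p 0.066).

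**Figure D3:**
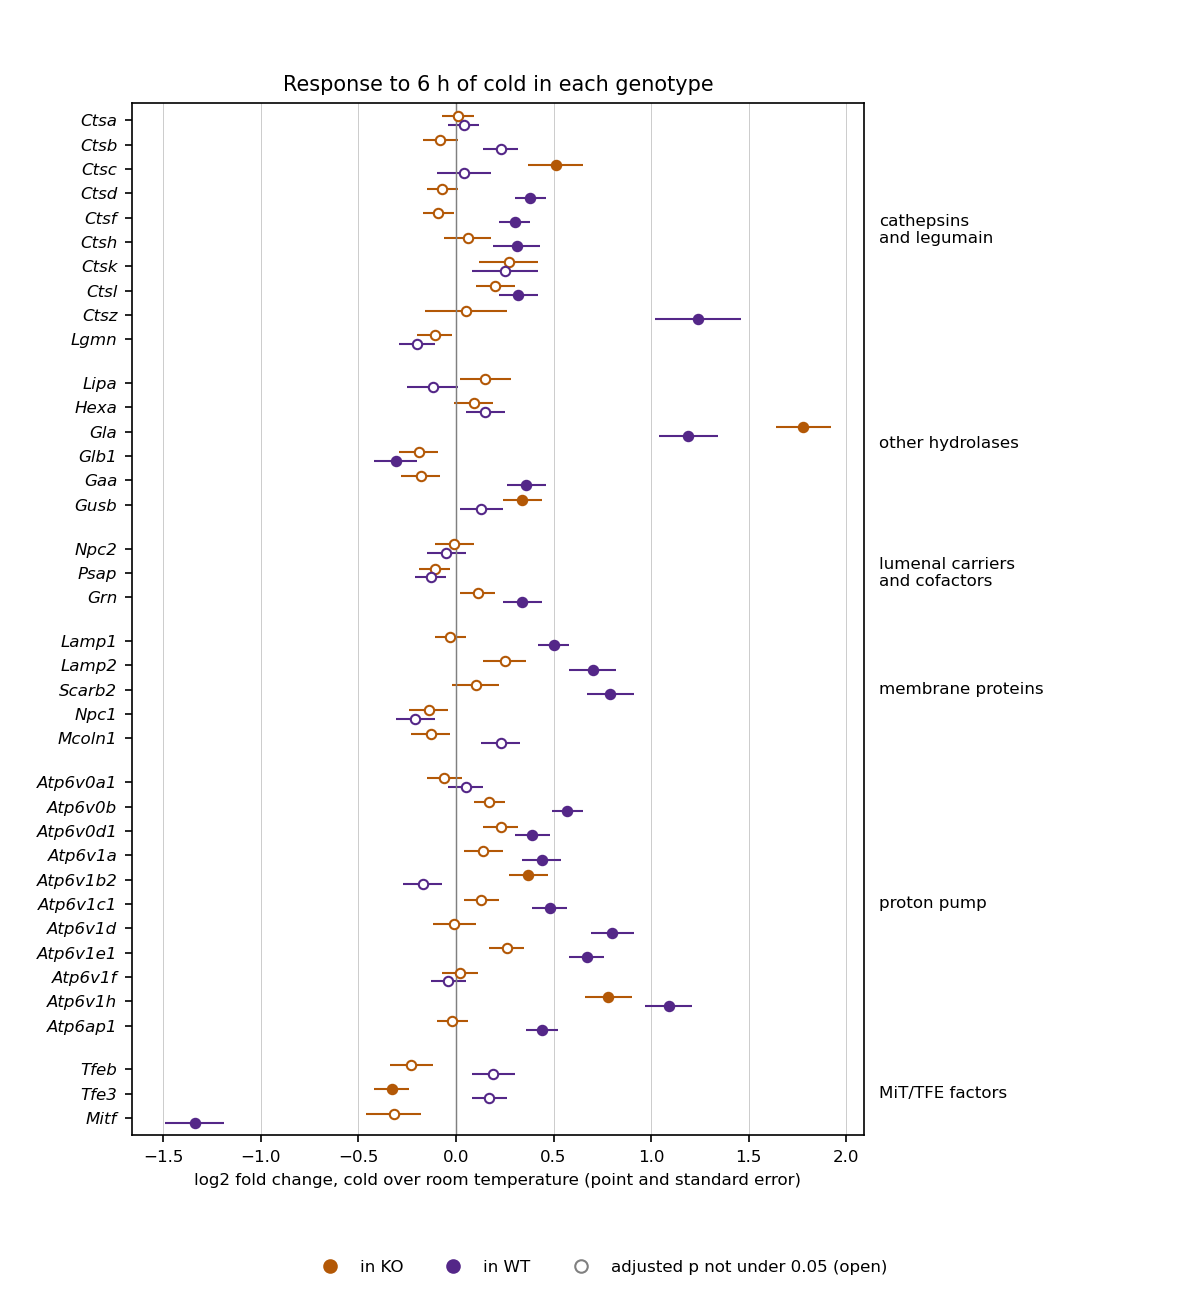
Log2 fold change of cold over room temperature (point) with its standard error (bar) for the 38 members, in KO (brown) and in WT (purple), filled where the adjusted p was under 0.05. Of the 11 tested pump genes 2 passed as higher in KO and 8 in WT, and Mitf was the one member that fell by more than 1 on the log2 scale, in WT (-1.34).

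The MiT/TFE factors did not follow one pattern. None of the 3 passed between KO and WT at room temperature in edgeR's test (1 at an unadjusted p under 0.05, and Mitf passed with DESeq2's Wald test and with limma voom, at -0.36 and -0.38). In the cold Mitf was higher and Tfeb and Tfe3 lower in KO than in WT.

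Mitf, which has several promoters and tissue-specific forms (chr6:97807052-98021349, plus strand), was at 5.03, 4.88 and 4.35 CPM in KO cold pools and 3.19, 2.31 and 3.46 in WT cold pools. At room temperature Mitf was at 5.75, 6.26 and 5.8 CPM in KO pools and 7.4, 7.17 and 8.3 in WT pools. In KO it averaged 4.75 ± 0.36 CPM in the cold, against 5.94 ± 0.282 at room temperature, and in WT 2.99 ± 0.6 CPM in the cold, against 7.62 ± 0.6 at room temperature (SD, n = 3 pools each). The response of Mitf to cold was -0.32 ± 0.14 in KO (adjusted p 0.15) and -1.34 ± 0.15 in WT (adjusted p 2.4e-06), so that the fall passed in WT and not in KO. KO cold pools were above WT cold pools by 0.66 ± 0.15 (adjusted p 0.0016), KO room temperature pools below WT room temperature pools without overlap by a non-passing -0.36 ± 0.14 (adjusted p 0.052), and the difference of the cold responses was 1.03 ± 0.21 (adjusted p 0.0023). The counts are summed over all forms of the gene.

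Tfe3 was at 25.7, 30.6 and 30.1 CPM in KO cold pools and 40.9, 39.5 and 39.7 in WT cold pools. At room temperature Tfe3 was at 36, 36.8 and 35.8 CPM in KO pools and 39.8, 31.5 and 35.9 in WT pools. KO cold pools were the lowest of all, below WT cold pools with a log2 fold change of -0.47 ± 0.09 (adjusted p 0.00041) and below KO room temperature pools with a log2 fold change of -0.33 ± 0.09 (adjusted p 0.022). In WT the response was 0.17 ± 0.09 (adjusted p 0.15), and the difference was -0.49 ± 0.13 (adjusted p 0.011). Tfeb was at 12.5, 13.8 and 14.7 CPM in KO cold pools and 18.2, 15.5 and 16.7 in WT cold pools. At room temperature Tfeb was at 16.3, 15.6 and 16.2 CPM in KO pools and 12.5, 15.8 and 16 in WT pools. It was lower in KO than in WT cold pools with a log2 fold change of -0.30 ± 0.11 (adjusted p 0.026), and the difference of the responses, -0.42 ± 0.15, did not pass (adjusted p 0.054). The call of Tfeb in the cold ended with library totals alone (0.13, adjusted p 0.44), without any one of replicate 1 or 2 of KO in the cold and replicate 1 or 3 of WT in the cold (-0.31 to -0.24, adjusted p 0.058 to 0.11) and with no filter beyond 1 count or with a strict filter (-0.28 to -0.24, adjusted p 0.064 to 0.065). For Tfe3 the call in the cold ended with library totals alone (-0.04, adjusted p 0.75), for cold in KO it ended with library totals alone (-0.30, adjusted p 0.055), without replicate 1 of KO in the cold (-0.25, adjusted p 0.12) and without replicate 6 of KO at room temperature (-0.34, adjusted p 0.056), and the difference did not pass with library totals alone (-0.28, adjusted p 0.15) and without the 2 muscle-rich libraries (-0.42, adjusted p 0.058).

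**Figure D4:**
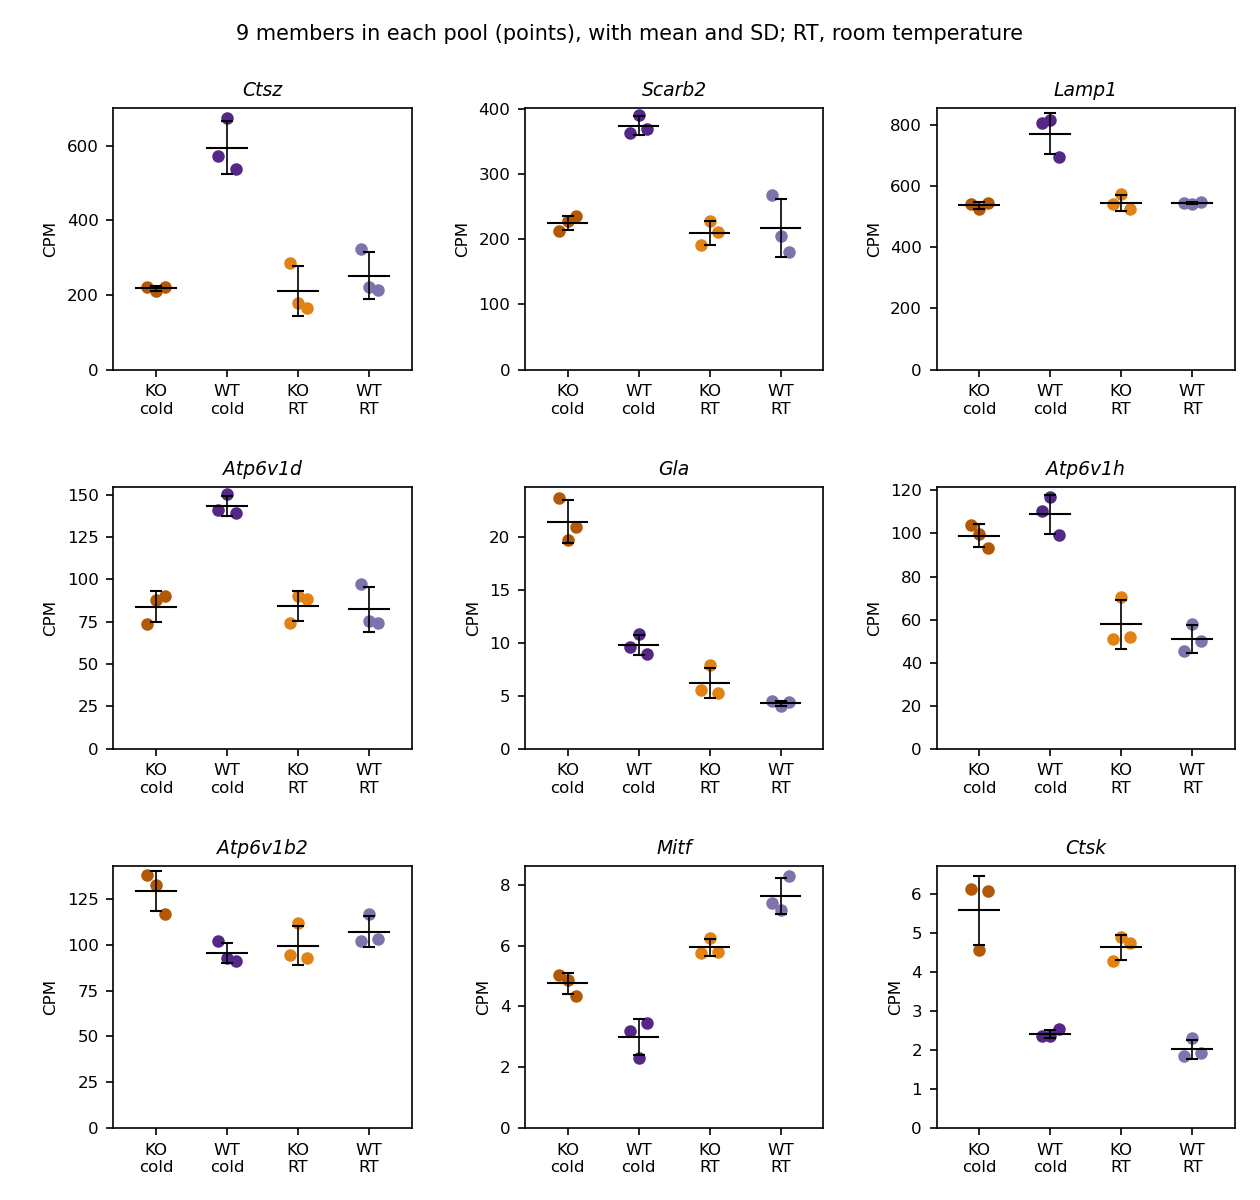
CPM of 9 members in each pool (points), with the mean (line) and SD (bar) of the 3 pools of a group. The genes were chosen after their values were seen: Ctsz, Scarb2, Lamp1 and Atp6v1d were high in WT cold pools alone, Gla and Atp6v1h rose with cold in both genotypes, Atp6v1b2 was high in KO cold pools, Mitf fell with cold in WT, and Ctsk was higher in KO at both temperatures.

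Members that rose with cold in WT were found with and without the E-box core in their windows. Of the 13 tested members with CACGTG, 1 was higher with cold in KO, and of the 19 without it 2 were higher and 1 lower. In WT 9 of the 13 were higher and 1 lower with cold (median 0.36), and of the 19 without it 7 and 1 (median 0.17). The differences of the cold responses were positive for 1 and negative for 5 of the 13 (median -0.30), and positive for 1 and negative for 6 of the 19 (median -0.11). Of all genes 7.29% were higher and 7.56% lower with cold in KO, and 23.0% and 23.2% in WT. The difference was positive for 10.6% of all genes and negative for 12.9%. These counts describe the windows, and both sets were not tested against each other. Lamp1, Atp6v0b and Gla, whose sequences are shown above, rose with cold in WT. Ctsd, also shown with CACGTG, rose too (0.38), a call that ended with library totals alone (0.19). Mcoln1, also shown with CACGTG, did not pass for cold in WT in edgeR's test. Ctsz, Scarb2 and Atp6v1d, which rose as much or more than Lamp1, had no CACGTG in this window.

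Further lysosomal genes were listed with earlier results of these data known. Their counts stand beside the share of all genes called higher and lower in KO, 25.9% and 27.8% in the cold and 19.3% and 21.0% at room temperature, and no list was tested against it. Of 28 other hydrolases and cofactors, 11 were higher and 7 lower in KO than in WT in the cold, and 5 and 8 at room temperature. With cold 4 of them were higher and 12 lower in WT, and of the members 19 were higher and 2 lower. Of all genes 23.0% were higher and 23.2% lower with cold in WT, and the sets were not tested against each other. Acp2, an acid phosphatase, was lower in KO with log2 fold changes of -0.55 ± 0.08 in the cold and -0.51 ± 0.07 at room temperature (adjusted p 1.7e-05 and 5.5e-05). Galc, the galactosylceramidase, was lower with log2 fold changes of -0.74 ± 0.10 and -0.59 ± 0.10 (adjusted p 1e-05 and 0.00016). Smpd1, acid sphingomyelinase, was at 58.4, 58.1 and 55.9 CPM in KO cold pools, against 118, 114 and 107 in WT cold pools, with a log2 fold change of -0.97 ± 0.08 (adjusted p 1.4e-07). At room temperature the fold change was -0.45 ± 0.08 (adjusted p 0.00043), and the difference of the cold responses was -0.53 ± 0.12 (adjusted p 0.0039). On library totals alone the fall of Acp2 in the cold (-0.11, adjusted p 0.33), that of Smpd1 at room temperature (-0.23, adjusted p 0.092) and the difference of Smpd1 (-0.30, adjusted p 0.17) did not pass.

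Of 17 tested membrane proteins outside the members, 6 were higher and 5 lower in KO in the cold, and 8 and 4 at room temperature. Tpcn1, a cation channel of endolysosomes, was at 43.6, 45.2 and 44.6 CPM in KO cold pools, against 101, 111 and 107 in WT cold pools, and at 55.4, 56.6 and 58.1 in KO room temperature pools, against 117, 108 and 109 in WT room temperature pools. It was lower in KO with log2 fold changes of -1.26 ± 0.07 in the cold and -0.98 ± 0.07 at room temperature (adjusted p 3.8e-09 and 8.4e-08). Laptm5, a membrane protein of blood cell lysosomes, was higher in KO by 1.28 ± 0.14 and 1.37 ± 0.14 (adjusted p 1.4e-06 and 1.5e-06), and Cd63 by 0.58 ± 0.09 and 0.78 ± 0.09 (adjusted p 4.2e-05 and 4.8e-06).

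Of 9 tested vacuolar ATPase genes outside the members, 4 were higher and 2 lower in KO in the cold, with 2 higher and 3 lower at room temperature. Tcirg1 (a3) and Atp6v0d2 (d2), pump subunits of osteoclasts and macrophages, were the ones raised most. Tcirg1 was at 25.1, 23.5 and 24.1 CPM in KO cold pools, against 12.2, 11.4 and 11.9 in WT cold pools, and at 20.5, 19.6 and 21.8 in KO room temperature pools, against 11, 11.4 and 12.3 in WT room temperature pools (log2 fold changes 1.03 ± 0.09 and 0.83 ± 0.09, adjusted p 1.2e-07 and 2e-06). Atp6v0d2 was at 2.45, 1.3 and 5.39 CPM in KO cold pools, against 0.187, 0.136 and 0.112 in WT cold pools, and at 1.89, 2.13 and 3.65 in KO room temperature pools, against 0.115, 0.171 and 0.109 in WT room temperature pools. Its log2 fold changes were 4.34 ± 0.60 and 4.22 ± 0.58 (adjusted p 6.8e-05 and 0.00013). Atp6v1c2, a C isoform, was lower in KO at room temperature (-1.50 ± 0.36, adjusted p 0.0037).

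Among the genes that tag and sort lysosomal enzymes, 1 of 9 was higher and 4 lower in KO in the cold, and 2 were lower at room temperature. Sort1, the sortilin receptor, was lower with log2 fold changes of -0.43 ± 0.08 and -0.50 ± 0.08 (adjusted p 0.00032 and 0.00017). Gnptab, the phosphotransferase that makes the mannose 6-phosphate tag, was higher in KO in the cold (0.42 ± 0.12, adjusted p 0.0069) and lower at room temperature (-0.53 ± 0.12, adjusted p 0.0019). With cold it fell in WT, at -1.18 ± 0.12 (adjusted p 8.4e-07). On library totals alone neither the fall of Gnptab at room temperature (-0.33, adjusted p 0.1) nor that of Sort1 in the cold, which turned to 0.01 (adjusted p 0.96), passed. Gnptg, which encodes the gamma subunit of that phosphotransferase, did not pass in either genotype comparison (-0.16 and 0.18).

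Of the 15 folliculin, Rag and Ragulator genes, which govern where MiT/TFE factors reside, 2 were higher and 8 lower in KO in the cold, and 1 and 4 at room temperature. Flcn, folliculin, was at 502, 486 and 431 CPM in KO cold pools and 409.8, 379.7 and 323 in WT cold pools. At room temperature Flcn was at 265, 280.4 and 253 CPM in KO pools and 164, 174 and 138 in WT pools. It was higher in KO at both temperatures (0.35 ± 0.11 and 0.74 ± 0.11, adjusted p 0.01 and 4.8e-05) and rose with cold in KO by 0.83 ± 0.11 and in WT by 1.22 ± 0.11 (adjusted p 7.3e-05 and 1.9e-07). Its call between KO and WT in the cold ended without replicate 3 of WT in the cold (0.27, adjusted p 0.058). Rragb, which encodes RagB, was lower in KO with log2 fold changes of -1.37 ± 0.20 and -1.56 ± 0.19, and Rptor, the substrate-binding part of mTORC1, was lower with log2 fold changes of -0.84 ± 0.08 and -0.26 ± 0.08 (adjusted p 2.9e-05 and 1.1e-05, and 3.4e-07 and 0.014). The room temperature call of Rptor ended with library totals alone (-0.04, adjusted p 0.76) and without replicate 3 of WT at room temperature (-0.23, adjusted p 0.057). Of 24 tested autophagy genes 1 was higher and 11 lower in KO in the cold, 2 higher and 7 lower at room temperature, with Pink1 (-0.37 and -0.51), Optn (-0.96 and -0.49) and Atg3 (-0.67 and -0.47) lower at both temperatures, except that with library totals alone Pink1 turned to 0.06 in the cold (adjusted p 0.59).

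Markers of macrophages, cells rich in lysosomal proteases, were higher in KO pools. The 14 listed macrophage markers, of which 13 were tested, summed to 420.1, 317 and 307 CPM in KO cold pools, against 133, 124 and 137 in WT cold pools, and to 252, 275 and 318 in KO room temperature pools, against 90.3, 115 and 119 in WT room temperature pools. Of the 13, 10 were higher at each temperature, with medians of 1.18 in the cold and 1.09 at room temperature. C1qa, C1qb and C1qc, the complement genes of tissue macrophages, were higher in KO by 1.18, 1.27 and 1.46 in the cold and by 1.38, 1.55 and 1.43 at room temperature, and Itgam was listed at 0 in every library. With cold, 6 of the 13 were higher in KO and 4 in WT, against 7.29% and 23.0% of all genes. All 8 markers of lipid-associated macrophages were higher in KO at both temperatures in edgeR's test and with DESeq2, and with limma voom 5 in the cold and 8 at room temperature. They had medians of 2.96 and 3.08, and summed to 75.4, 58.4 and 126 CPM in KO cold pools, against 18.6, 18.3 and 15.2 in WT cold pools, and to 57.7, 71.2 and 137 in KO room temperature pools, against 11.4, 11.4 and 13.6 in WT room temperature pools. One of these 8, Atp6v0d2, is also in the pump list. The plot of marker sums shows KO pools above WT pools at both temperatures for both macrophage lists, and below them for brown adipocyte markers.

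**Figure D5:**
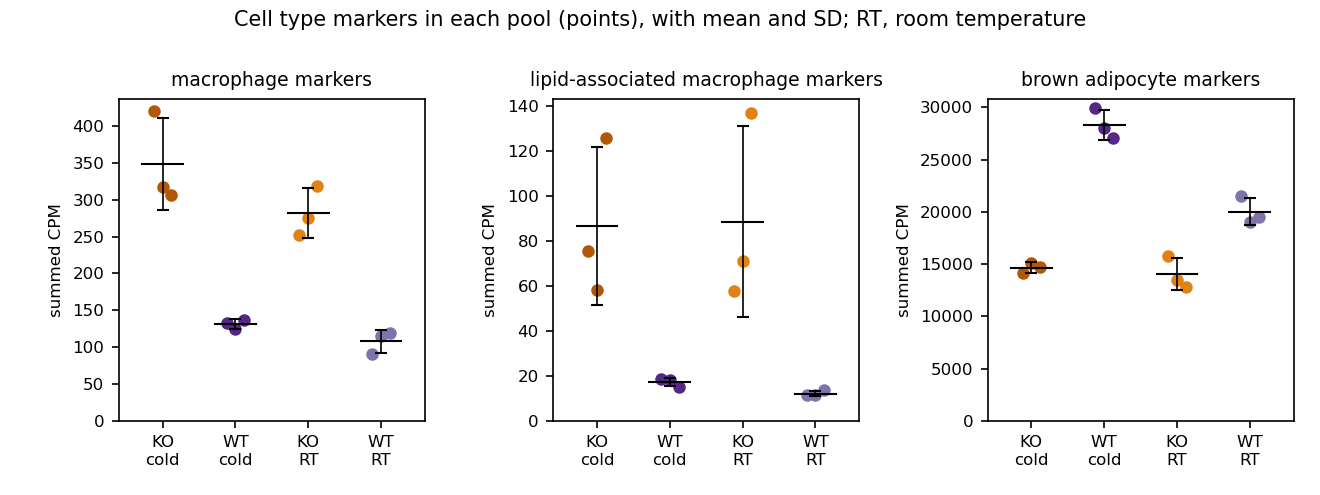
Summed CPM of 14 macrophage, 8 lipid-associated macrophage and 10 brown adipocyte markers in each pool (points), with the mean (line) and SD (bar) of the 3 pools of a group. Macrophage markers lay between 307 and 420 CPM in KO cold pools, against 124 to 137 in WT cold pools, and between 252 and 318 in KO room temperature pools, against 90.3 to 119 in WT room temperature pools.

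These marker sums moved with the higher Ctsk, Ctsc, Ctsh, Gusb and Npc2 of KO pools, and their part in those results was not tested. Markers of other cell types also differed. In KO in the cold 8 of 10 endothelial markers were higher and 1 lower, and at room temperature 9 were higher. Of 10 fibroblast and preadipocyte markers 7 were higher in KO in the cold and 6 at room temperature. Of 8 smooth muscle and pericyte markers 4 were higher and 2 lower at each temperature, and of 8 tested T, B, neutrophil and mast cell markers 4 were higher in the cold and 1 at room temperature. Brown adipocyte markers were lower in KO, 4 of 10 in the cold and 6 at room temperature. Ucp1, the uncoupling protein of brown adipocytes, had a cold response of 0.04 ± 0.12 in KO and 1.14 ± 0.12 in WT (adjusted p 0.88 and 1.5e-06). Ctsz, Scarb2, Lamp1 and Atp6v1d moved with Ucp1, being highest in WT cold pools, where the brown adipocyte marker sum was also highest. The 10 markers did not share this pattern. With cold in WT 2 of them were higher and 3 lower (median -0.05), against 23.0% and 23.2% of all genes. The difference of the cold responses was positive for 1 and negative for 2 (median -0.10), against 10.6% and 12.9% of all genes. The part of Ucp1 and of the marker sum in the results of these members was not tested.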

How the data were processed

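RNA of interscapular brown adipose tissue was sequenced in 12 libraries, each from a pool of 2 mice. The deposited files hold raw read counts per gene, which the authors made with STAR, HTSeq and build GRCm38, per the submitters' processing notes; versions are not given in the sources used here. As shares of all reads listed for a library, assigned or not, ambiguous reads were 1.07 to 1.37%, those in no feature 1.64 to 2.26% and those with several alignments 26.6 to 30.2%. These summary lines were left out of all tests. Strand is named only in the file names, so counts of genes that overlap on opposite strands are uncertain. Names, exon lengths and positions are from GENCODE M21.

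Counts were tested with edgeR 4.0.16 in R 4.3.3 (quasi-likelihood test, TMM factors, robust fit, prior count 0.125). One mean per group was fitted over all 12 libraries, and p-values were adjusted by the Benjamini-Hochberg method over 15208 genes, with a threshold of 0.05. The filter on low counts left out 38171 genes. Values after ± are standard errors for fold changes. The common biological coefficient of variation was 13.6%. The labels call the pools biological triplicates, and replicates of a group differed beyond sampling noise, with a chi-square per degree of freedom of 11.3 to 98.5. The tests were tested on simulated data first.

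Alternatives were median-ratio size factors, library totals alone, fits without mitochondrially encoded genes, every gene with at least 1 count, only genes at 1 CPM in 6 libraries (the strict filter), limma 3.58.1 voom with sample weights, DESeq2 1.42.0, fits of the 6 libraries of a comparison, a replicate block, each library left out in turn, and the 2 libraries richest in skeletal muscle transcripts left out. The members and all gene lists were chosen with earlier results of these data known. Values in every library are given for the 4 members of each class with the smallest p between KO and WT and for members whose cold responses differed, and of other lists up to 3 genes with the smallest p between KO and WT at room temperature.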

Additional observations from a re-analysis of the deposited data

Results flagged for a closer look

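The cold responses of 15 members (39.5% of those tested) differed between KO and WT in the test of the difference itself (KO response minus WT response, log2, edgeR's quasi-likelihood test, adjusted p under 0.05). Of all genes tested 23.5% passed that test, 10.6% with a positive and 12.9% with a negative difference. The differences that passed in every alternative tried were those of Mitf at 1.03, Ctsz at -1.19, Atp6v1d at -0.81 and Scarb2 at -0.69. For Ctsz, Atp6v1d and Scarb2 the KO response did not pass and the WT response was a rise, and for Mitf the KO response did not pass and the WT response was a fall.

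The other 11 differences did not pass in at least 1 alternative. Gla at 0.59 and Atp6v1b2 at 0.54 were positive. Among enzymes the differences were negative for Gaa at -0.54, Ctsd at -0.46 and Ctsf at -0.39. Among membrane and pump genes they were negative for Lamp1 at -0.53, Atp6ap1 at -0.46, Atp6v0b and Atp6v1e1 at -0.41 each and Atp6v1c1 at -0.35, and Tfe3 was at -0.49. What lies behind these differences was not tested.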

How the results depend on the processing

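With library totals alone, for KO against WT in the cold, 10 log2 fold changes at or below 0 turned positive in members called on at least 1 of both scales. They were Ctsa 0.44, Ctsd 0.33, Hexa 0.23, Glb1 0.43, Grn 0.22, Mcoln1 0.30, Atp6v0b 0.34, Atp6v1c1 0.08, Atp6ap1 0.20 and Tfeb 0.13. Lipa (0.15), Psap (0.25) and Atp6v1h (0.31) also turned positive, called on neither scale. That scaling gave 21 members higher and 4 lower in the cold (9 and 14 with TMM factors), against 7881 and 1073 of all 15208 genes. At room temperature it gave 2 lower (4), against 1267 of all genes. For cold in KO it gave 2 higher and 0 lower (5 and 1) with 1476 genes called (2258), 801 of them higher and 675 lower. For cold in WT it gave 11 higher and 6 lower (19 and 2), against 1826 and 4813 of all genes. For the difference it gave 3 lower (12), against 711 of all genes. Limma voom gave 8 members higher and 4155 genes for cold in KO, and 4 lower for cold in WT. Without the 2 muscle-rich libraries 3566 genes were called for KO against WT at room temperature (6138). That setting gave 1214 genes and 2 higher members for cold in KO, 1 lower member for cold in WT, and 1903 genes (3581) with 1 higher (3) and 5 lower members for the difference. The cause was not tested, beyond the shift of the median of all genes with library totals alone and the smaller number of libraries.

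Leaving out each library in turn gave these ranges. At room temperature 4782 to 6005 genes were called, 9 to 13 members higher and 3 to 5 lower. In the cold 6900 to 7500 genes were called, 9 members higher each time and 12 to 14 lower. For cold in KO there were 1171 to 2538 genes, 2 to 6 members higher and 0 to 1 lower. For cold in WT there were 5879 to 6989 genes, 16 to 21 higher and 1 to 3 lower. For the difference there were 2579 to 4014 genes, 2 to 3 higher and 9 to 14 lower.

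Deviations of pools with the same replicate number had correlations of -0.267, -0.101 and -0.158 between KO and WT cold, and 0.045, -0.19 and 0.229 between WT cold and room temperature. Between different numbers they lay from -0.068 to 0.198 and from -0.316 to 0.322. With 3 pools per group this cannot tell whether pools of the same number share more than the number. With a replicate block 7751 genes were called for KO against WT in the cold (8161), with 9 members higher and 14 lower, and 6605 for cold in WT (7034), with 18 higher and 2 lower. KO room temperature pools carry other numbers, so no block could be fitted there. Depth limits the least abundant members most, Ctsk with as few as 48 reads and Mitf with 51 in a library.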
